A study of Mus musculus with 15 samples.

Results

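The Sox genes encode transcription factors that bind DNA through a high-mobility-group (HMG) box, and they are sorted into subgroups by the likeness of that box. The 10 members described here were chosen by name, with earlier results of these data known. They are 10 of the 19 Sox genes and of the 27803 genes listed in the deposited tables. They cover SOXB1 (Sox2), SOXC (Sox4, Sox11 and Sox12), SOXD (Sox5 and Sox6), SOXE (Sox8, Sox9 and Sox10) and SOXF (Sox18). Each was followed across cell classes named from marker genes, with the animal as the replicate.

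The study asked how SHH-driven medulloblastoma cells respond to inhibition of Smoothened (SMO), the signal transducer of the Sonic hedgehog (SHH) pathway. Drop-seq, which reads the mRNA of single cells through unique molecular identifiers (UMIs), was run on 15 mice in 3 groups of 5. The WT group were C57BL/6 cerebella at P7, untreated. The other groups were medulloblastomas of M-Smo mice (Math1-Cre:SmoM2/EYFP loxP/loxP, also C57BL/6 by label) at P15, in which Math1-Cre turns on the constitutively active SmoM2, fused to EYFP, in the Atoh1 lineage that gives cerebellar granule neurons. Vessels and microglia lie outside that lineage. Vehicle-treated and vismodegib-treated M-Smo mice received 3 daily doses from P12 on, of the solvent alone or of vismodegib, a SMO inhibitor, at 75 mg/kg. Vehicle-treated tumors differ from WT cerebella in genotype, age, injection and the microfluidic device used. Human cells were also added to the tumor samples only, whose reads were aligned an additional time. These differences cannot be told apart in the comparison of vehicle-treated tumors with WT.

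SOX proteins bind short related DNA motifs and usually act beside partner factors such as POU, OLIG or PAX proteins. Sox2 is known from neural stem and progenitor cells. The SOXC factors promote neuronal differentiation in cells that leave the cycle. Sox9 is known for establishing and maintaining glial fates, and Sox10, with Sox8, for driving oligodendrocyte differentiation and myelin genes. Sox5 and Sox6 lack an activation domain of their own and modulate other SOX factors, and Sox18 is known from the endothelium together with Sox7 and Sox17. In the early postnatal cerebellum, SHH from Purkinje cells drives cerebellar granule neuron progenitors (CGNPs) to divide.

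The HMG box is what makes these genes a family, so the longest run of residues that all 10 proteins share is shown at the DNA level. It spans 9 residues, or 27 coding bases in 1 exon of each gene, near the start of the HMG box. Sequences are from the GENCODE M21 transcripts on GRCm38, 5′ to 3′ on the strand of the gene, and capitals mark the bases that differ from Sox2.
Sox2 (chr3:34650548-34650574, plus strand): aggcccatgaacgccttcatggtatgg
Sox4 (chr13:28952815-28952841, minus strand): CggcccatgaacgccttTatggtGtgg
Sox5 (chr6:143841247-143841273, minus strand): CgTccAatgaaTgccttcatggtGtgg
Sox6 (chr7:115489736-115489762, minus strand): CgAccAatgaaTgcGttcatggtTtgg
Sox8 (chr17:25570196-25570222, minus strand): CggcccatgaaTgccttcatggtGtgg
Sox9 (chr11:112782903-112782929, plus strand): CgAcccatgaacgccttcatggtGtgg
Sox10 (chr15:79163375-79163401, minus strand): aggcccatgaacgccttcatggtGtgg
Sox11 (chr12:27342232-27342258, minus strand): CggcccatgaacgccttcatggtGtgg
Sox12 (chr2:152397549-152397575, minus strand): CggccGatgaacgcGttcatggtGtgg
Sox18 (chr2:181671255-181671281, minus strand): CggcccatgaacgccttcatggtGtgg
Sox10 differs from Sox2 at 1 base and Sox6 at 6, and Sox11 and Sox18 carry the same letters here although they belong to different subgroups. Drop-seq reads come mostly from near the poly(A) tail, whereas this stretch lies in the coding part.

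The tables listed 3000 barcodes for each WT cerebellum and 904 to 9885 for each tumor. After the criteria on quality, 7224 WT, 18293 vehicle-treated and 12429 vismodegib-treated cells were kept, with 1554478 to 16745299 UMIs per animal and a median of 1082.5 to 2597 UMIs per cell. No pair of the 15 tables shared more than 13 barcodes. CGNP-like cells, the union of 4 stages after the study's Nodes A to D, were 5009 WT, 17138 vehicle-treated and 10987 vismodegib-treated cells. Node A-like cells hold markers of S to M phase, Node B-like cells Gli1, Atoh1 and replication genes, Node C-like cells early differentiation markers and Node D-like cells late ones. Node B-like cells were 46.2% of all vehicle-treated and 17.9% of all vismodegib-treated cells, and Node D-like cells 9.65% and 43.5%. Defining markers were in place, for example Aqp4, the astrocytic water channel, at 5869.8 CPM in astrocyte-like and 9.83 CPM in CGNP-like cells of vehicle-treated tumors, and Atoh1, the factor of granule progenitors, at 156 CPM in Node B-like and 17.1 CPM in microglia-like cells. Sox genes and the SOX target genes listed here were left out of clustering and of naming.

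A level in CPM is the number of UMIs of a gene in every 1000000 UMIs of a class, summed within an animal, and groups are summarised as the mean ± SD over animals with at least 5 such cells. Differences are on the log2 scale with their SE from edgeR's quasi-likelihood test on the summed counts, with p-values adjusted by Benjamini-Hochberg over all genes tested, and a gene is called at an adjusted p under 0.05. UMI counts of different genes are compared between animals or classes, not as levels of one gene against another.

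**Figure D1:**
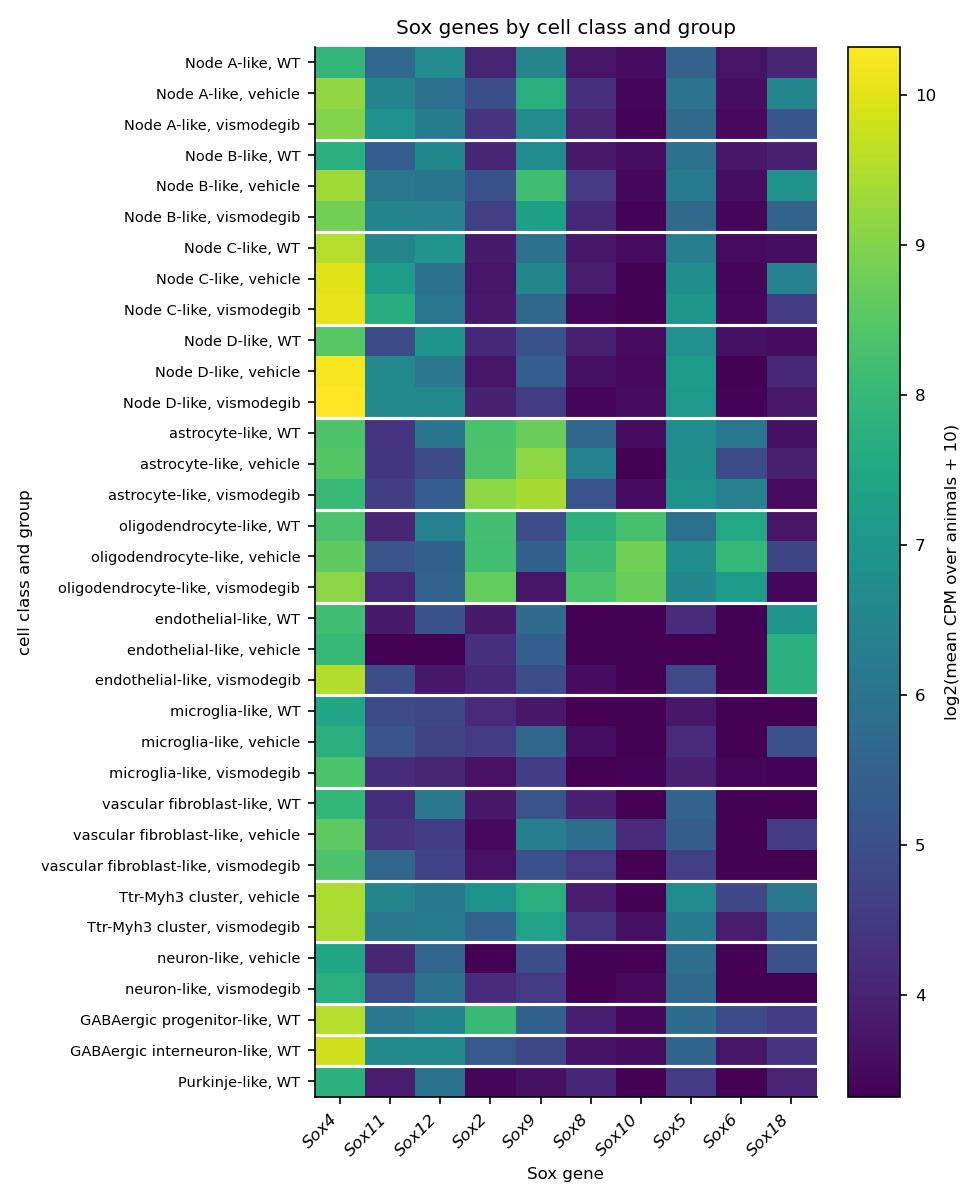
Mean level of each Sox gene (columns) in each cell class and group (rows), colored by log2(mean CPM over animals + 10). Within a column, Sox10 stands out in oligodendrocyte-like cells, Sox9 in astrocyte-like cells, Sox2 in astrocyte-like and oligodendrocyte-like cells, Sox4 in Node C-like and Node D-like cells and Sox11 in Node C-like cells of the tumors, and Sox18 in endothelial-like cells and in CGNP-like cells of vehicle-treated tumors.

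Among the SOXE genes, Sox9 separated the treatments most plainly. In CGNP-like cells of the 5 vehicle-treated tumors it was at 274, 164, 274, 141 and 205 CPM. In the vismodegib-treated tumors it was at 81.8, 85.4, 66.1, 70.0 and 65.3 CPM, and in WT cerebella at 69.7, 52.9, 72.4, 71.6 and 78.4 CPM. Every vehicle-treated tumor was above every animal of the other groups, and the vismodegib-treated tumors overlapped the WT range in this class as a whole. With means of 212 ± 61.4 CPM in vehicle-treated and 73.7 ± 9.28 CPM in vismodegib-treated tumors (SD, n = 5 each), Sox9 fell by 1.51 ± 0.18 on the log2 scale (SE; edgeR adjusted p = 0.000213). Against WT, at 69.0 ± 9.56 CPM (SD, n = 5), it was higher in vehicle-treated tumors by a log2 difference of 1.53 ± 0.19 (SE; edgeR adjusted p = 1.91e-05). Of the 8 members tested in CGNP-like cells, 2 were called between treatments, both lower, where 13.1% of the 12411 genes tested were called, and 6 between vehicle-treated tumors and WT, where 44.7% of the 12552 genes tested were called. The vehicle-treated tumors are shared by both comparisons.

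The Sox9 difference between treatments was also present within stages. In Node B-like cells, the stage with SHH target genes, Sox9 was at 329, 213, 372, 216 and 267 CPM in vehicle-treated and 130.2, 153, 110.3, 182 and 160.2 CPM in vismodegib-treated tumors, with no overlap. It fell by 0.89 ± 0.18 there (SE; edgeR adjusted p = 0.0119) and by 1.05 ± 0.21 in Node A-like cells (edgeR adjusted p = 0.0107). In Node C-like and Node D-like cells the differences were -0.95 (edgeR adjusted p = 0.354) and -1.31 (edgeR adjusted p = 0.0688), which did not pass the test. Of the members tested, 2 of 7, 2 of 8, 1 of 6 and none of 5 were called in the Node A-like to Node D-like stages. The shares over all genes were 2% of the 8953 genes tested, 3.32% of 10694, 0.523% of 7837 and 0.462% of 7790. In Node D-like cells, 679 of the genes had an unadjusted p under 0.05, and DESeq2 called 85.

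Sox9 was lower in the later stages. In vehicle-treated tumors the stages A, B, C and D were at 199 ± 71.1, 279.6 ± 69.9, 82.9 ± 46.3 and 32.5 ± 13.4 CPM (SD, n = 5). Node B-like cells were above Node D-like cells in 5 of 5 animals of each group. Against WT, Sox9 was higher in vehicle-treated tumors by 1.15 (edgeR adjusted p = 0.000287) in Node A-like and 1.36 (edgeR adjusted p = 2.45e-05) in Node B-like cells, and the difference of 0.51 (edgeR adjusted p = 0.239) in Node C-like cells did not pass. Microglia-like cells should lack Sox9, and UMIs counted there may come from free RNA or doublets, which was not tested. They were at 3.72 ± 8.33 CPM in WT, 39.5 ± 26.4 CPM in vehicle-treated and 14.1 ± 18.0 CPM in vismodegib-treated animals (SD, n = 5 each), below the CGNP-like level of the same animal in all 15. The summed level of 12 astrocyte markers in CGNP-like cells was 297 to 425 CPM in WT, 397 to 713 CPM in vehicle-treated and 383 to 563 CPM in vismodegib-treated animals, and its part in the Sox9 levels was not tested.

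In astrocyte-like cells Sox9 did not follow that course. It was at 392.1, 271, 439.8, 399 and 614 CPM in WT, 641, 575, 524 and 448 CPM in 4 vehicle-treated tumors, the fifth having too few such cells, and 564, 684, 696, 745 and 658 CPM in vismodegib-treated tumors. The treated groups overlapped, with a log2 difference of 0.37 ± 0.23 (SE; edgeR adjusted p = 0.454), and vehicle-treated tumors differed from WT by 0.36 (edgeR adjusted p = 0.308). None of the 3 members tested was called in either comparison of astrocyte-like cells, against 1.86% of the 1830 genes tested between treatments and 27% of 2343 against WT. At an unadjusted p under 0.05, 248 genes passed between treatments, and DESeq2 called 24. The log2 difference of astrocyte-like minus CGNP-like cells was larger in vismodegib-treated tumors by 1.56. This difference between classes was chosen for a test after the values had been seen, and its p does not account for that choice. The 2-sided exact permutation p was 0.0159, adjusted over 3 such tests 0.0159, the smallest p that 4 against 5 animals allow. The share of all Sox9 UMIs that lay in astrocyte-like cells was 3.00% in vehicle-treated and 29.6% in vismodegib-treated tumors, and CGNP-like cells held 94.97% and 65.9%, where astrocyte-like cells were 131 of 18293 and 254 of 12429 cells. CGNP-like cells were 17138 and 10987 of all cells of these tumors. Over whole tumors Sox9 fell by 1.22 ± 0.17 (SE; edgeR adjusted p = 0.00097). It was 1 of 2 members called of 10 tested there, where 13.9% of the 13190 genes tested were called. In a sum over all cells, fewer cells of a class and less RNA per cell cannot be told apart.

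**Figure D2:**
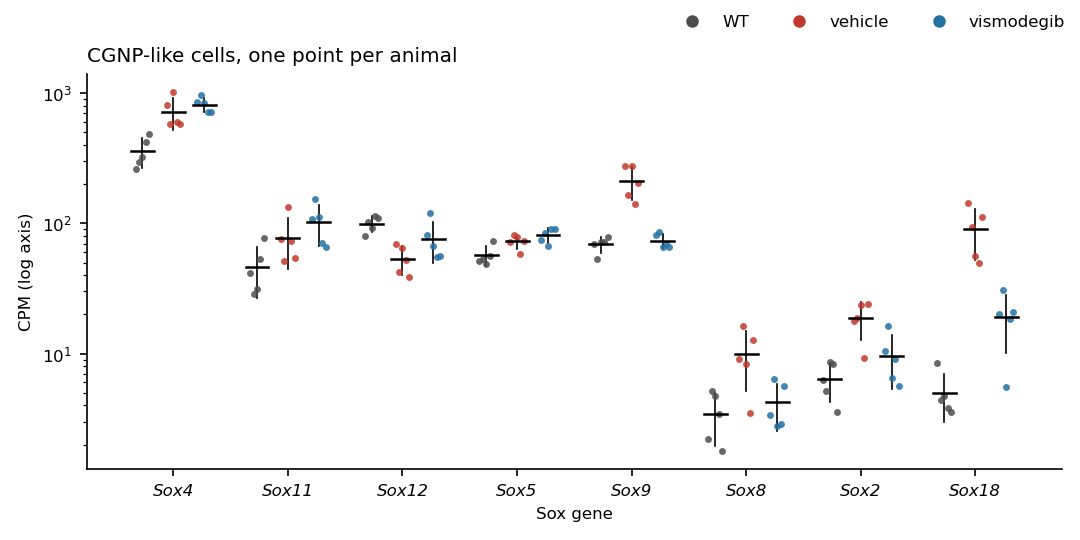
CPM of 8 Sox genes in CGNP-like cells, on a log axis, with 1 point per animal (n = 5 in each of WT, vehicle-treated and vismodegib-treated), the mean as a bar and the SD as a line. For Sox9 the vehicle-treated tumors lie above all other animals, and for Sox18 above both other groups, while Sox12 is highest in WT on average.

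Sox8 and Sox10, the other SOXE genes, had their highest levels in oligodendrocyte-like cells. Sox10 was at 299 ± 48.6 CPM in WT, 443 ± 127 CPM in vehicle-treated and 418 ± 165 CPM in vismodegib-treated oligodendrocyte-like cells (SD, n = 5 each), and at 0.888 ± 0.406 CPM in CGNP-like cells of vehicle-treated tumors. These cells held 88.4%, 91.2% and 89.7% of all Sox10 UMIs. Of all Sox8 UMIs they held 59.6% in WT, 35.5% in vehicle-treated and 55.1% in vismodegib-treated animals, and the more numerous CGNP-like cells held 15.2%, 58.1% and 29.6%. Astrocyte-like cells had the next level of Sox8 in every group, without overlap with oligodendrocyte-like cells. They were at 39.3 ± 23.4 CPM in WT (SD, n = 5), 73.8 ± 19.8 CPM in vehicle-treated (SD, n = 4) and 25.2 ± 13.3 CPM in vismodegib-treated animals (SD, n = 5). The vehicle-treated range of 52.9 to 98.2 CPM, on 29 UMIs, lay above the vismodegib-treated range of 12.3 to 47.1 CPM, on 37. Sox8 was not tested between treatments in this class. Single animals held Sox10 in oligodendrocyte-like cells at 622, 288, 480.2, 463 and 361 CPM in vehicle-treated and 644, 265, 255, 420.4 and 505 CPM in vismodegib-treated tumors, so the groups overlapped widely, with a difference of 0.07 (edgeR adjusted p = 0.971). Sox8 was at 274, 317, 168, 288 and 260.2 CPM and 314, 353, 213, 448 and 238 CPM in the same tumors, with a difference of 0.35 (edgeR adjusted p = 0.53). Of the 6 members tested in oligodendrocyte-like cells between treatments and the 5 tested against WT, none was called, where 5.84% of the 2721 genes tested and 26.6% of 2430 were called. At an unadjusted p under 0.05, 476 and 911 genes passed, and DESeq2 called 166 and 612.

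Of the SOXE targets listed, the myelin gene Mbp, known as a Sox10 target in oligodendrocytes, was higher in oligodendrocyte-like cells of vismodegib-treated tumors by 2.23 (edgeR adjusted p = 0.0054). It was at 1866 ± 1304 CPM in vehicle-treated and 8219.6 ± 4151 CPM in vismodegib-treated tumors (SD, n = 5 each). Fabp7, a lipid-binding protein of glial progenitors, fell by 1.17 (edgeR adjusted p = 0.017). The makeup of this class differed beside these values: Pdgfra, which marks oligodendrocyte progenitors, was at 889 and 264 CPM over all such cells of vehicle-treated and vismodegib-treated tumors, and Mog, of mature cells, at 191 and 1059 CPM. Its part in the target genes was not tested.

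Within the oligodendrocyte-like class, re-clustered into subsets, Sox10 was detected at every stage. In the progenitor (OPC) subset it was at 296 ± 82.6 CPM in WT, 421 ± 148 CPM in vehicle-treated (SD, n = 5 each) and 468 ± 235 CPM in vismodegib-treated tumors (SD, n = 4). In a subset led by Bmp4 and Enpp6, as in newly forming oligodendrocytes, it was at 456 ± 80.0 CPM (SD, n = 5) and 579.5 ± 98.8 CPM (SD, n = 3). In the mature subset of WT cerebella it was at 331 ± 122 CPM (SD, n = 5). Sox2 was likewise present in the WT mature subset, at 402 ± 93.0 CPM, beside 208 ± 83.9 CPM in the OPC subset. The WT class was split into 2 subsets only, without a Bmp4 and Enpp6 subset, and held Mog at 76.2 CPM. Whether the WT mature subset holds newly forming cells was not tested. In tumors the mature subset reached 5 cells in 1 animal per group, with 0 vehicle-treated and 1 vismodegib-treated Sox2 UMI.

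Sox8 was counted at a low level in CGNP-like cells too, where it was at 9.08, 16.4, 8.30, 3.48 and 12.7 CPM in vehicle-treated and 3.35, 6.41, 2.79, 2.90 and 5.61 CPM in vismodegib-treated tumors. The groups overlapped through 1 vehicle-treated tumor, and the difference was -1.23 (edgeR adjusted p = 0.0505). Of 19 alternative fits 9 passed, with adjusted p of 0.0133 to 0.141 over all of them. Against WT, at 3.46 ± 1.495 CPM (SD, n = 5), vehicle-treated tumors were higher by a log2 difference of 1.52 ± 0.43 (SE; edgeR adjusted p = 0.00951). Microglia-like cells of vehicle-treated tumors held 1 Sox8 UMI. The summed level of 14 oligodendrocyte markers in CGNP-like cells, mostly C1ql1, Bcas1 and Pdgfra, was 213 to 253 CPM in WT, 433 to 655 CPM in vehicle-treated and 330.5 to 416 CPM in vismodegib-treated animals, and its part in Sox8 was not tested. Sox8 overlaps 2810468N07Rik on the opposite strand, the counting used default settings of which the sources used here do not spell out the strand, and whether reads of both genes were separated is not known here.

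Sox18, a SOXF gene of the endothelium, showed larger differences than the 7 other members tested in CGNP-like cells. It was at 142, 93.6, 56.4, 49.5 and 111.5 CPM in vehicle-treated tumors and at 20.1, 30.6, 5.58, 18.4 and 20.7 CPM in vismodegib-treated tumors. In WT cerebella it was at 8.48, 4.41, 4.76, 3.81 and 3.56 CPM. The lowest vehicle-treated tumor was above the highest vismodegib-treated tumor, and vismodegib replicate 3 lay within the WT range. Sox18 fell by 2.21 ± 0.35 with vismodegib (SE; edgeR adjusted p = 0.00107), and was higher in vehicle-treated tumors than in WT by a log2 difference of 4.00 ± 0.33 (SE; edgeR adjusted p = 5.64e-07).

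Sox18 was lower with vismodegib in each stage tested, and whether the falls differed between stages was not tested. In Node C-like cells Sox18 was at 99.0, 70.7, 56.3, 46.0 and 105 CPM in vehicle-treated and 11.5, 20.3, 3.45, 11.4 and 21.5 CPM in vismodegib-treated tumors, without overlap. It fell by 2.39 ± 0.32 there (SE; edgeR adjusted p = 0.0016), by 1.51 in Node B-like cells (edgeR adjusted p = 0.0177) and by 1.57 in Node A-like cells (edgeR adjusted p = 0.0317). The last call was lost when any of 6 tumors was left out (vehicle replicates 1, 2 and 5, vismodegib replicates 1, 4 and 5), with adjusted p up to 0.0861. That in Node B-like cells was lost without vismodegib replicate 1 (edgeR adjusted p = 0.0527). In Node D-like cells Sox18 was at 7.61 ± 6.30 and 3.86 ± 2.12 CPM (SD, n = 5 each) and was not tested. Against WT, it was higher by 3.33 (edgeR adjusted p = 3.8e-06) in Node A-like, 4.13 (edgeR adjusted p = 7.63e-07) in Node B-like and 4.51 (edgeR adjusted p = 3.24e-07) in Node C-like cells. WT animals held at most 4 Sox18 UMIs each in Node B-like or Node C-like cells, so these fitted values rest on few WT counts.

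CGNP-like cells held 97.4% of all Sox18 UMIs of vehicle-treated tumors, 85.4% of those of vismodegib-treated tumors and 50% of those of WT cerebella. They were 17138 of 18293, 10987 of 12429 and 5009 of 7224 cells, so much of these shares goes with the size of the class. Endothelial genes listed here differed in how far they were counted in both classes. In the 17138 vehicle-treated CGNP-like cells, 3415 UMIs of Sox18 stood beside 4 of Sox17, 1 of Sox7, 22 of Cldn5, 14 of Cdh5 and 19 of Pecam1. In the 56 endothelial-like cells of the same tumors the UMIs were 31 of Sox18, 46 of Sox17, 194 of Cldn5 and 57 of Pecam1. The summed level of 10 endothelial markers in CGNP-like cells was 36.5 to 52.4 CPM in WT, 51.6 to 129 CPM in vehicle-treated and 34.9 to 41.4 CPM in vismodegib-treated animals. Most of the vehicle-treated sum was Ramp2, at 69.8 CPM against 6.85 in WT and 10.1 in vismodegib-treated cells, which was thus highest in the same group as Sox18, and none of the 10 was at 0.

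Some Sox18 was counted in cells that should lack it. Microglia-like cells were at 0 CPM in WT, 23.1 ± 25.5 CPM in vehicle-treated tumors, from 13 UMIs, and 0.504 ± 1.127 CPM in vismodegib-treated tumors, from 1. In vehicle-treated tumors oligodendrocyte-like cells were at 17.7 ± 15.8 CPM (SD, n = 5 each), against 90.7 ± 38.7 CPM in CGNP-like cells. With each cell thinned to 500 UMIs, 3.78% of CGNP-like and 1.11% of microglia-like cells of vehicle-treated tumors had a Sox18 UMI, and without thinning 14.1% and 4.35%, at medians of 1694 and 2110 UMIs per cell. The thinned microglia-like share, a mean over animals, came from 2 cells of vehicle replicate 2, and the 4 other tumors were at 0. In endothelial-like cells Sox18 was at 234, 129.7, 87.9, 83.5 and 57.2 CPM in WT, 137, 317, 410.4, 66.4 and 137 CPM in vehicle-treated and 177, 240.0, 55.3, 265 and 339 CPM in vismodegib-treated animals, which overlap. Each of these values rests on 1 to 38 UMIs, and no test was run on this class. Rgs5, a marker of mural cells, was at 2400 CPM in the WT class, 1256 in the vehicle-treated and 839 in the vismodegib-treated class. A separate mural-like class was found in tumors only, and the part of this makeup in the Sox18 levels was not tested.

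Some CGNP-like cells, pooled over animals, held UMIs of both Sox9 and Sox18. Of the 4531 vehicle-treated CGNP-like cells with a Sox9 UMI, 21.9% (95% exact binomial interval 20.7 to 23.1, counting error only) had a Sox18 UMI, against 13.1% of the rest. In vismodegib-treated cells the shares were 12.1% (10.2 to 14.1) and 2.48%. Cells with more UMIs hold more of both genes, and depth and stage were not held constant in these shares.

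**Figure D3:**
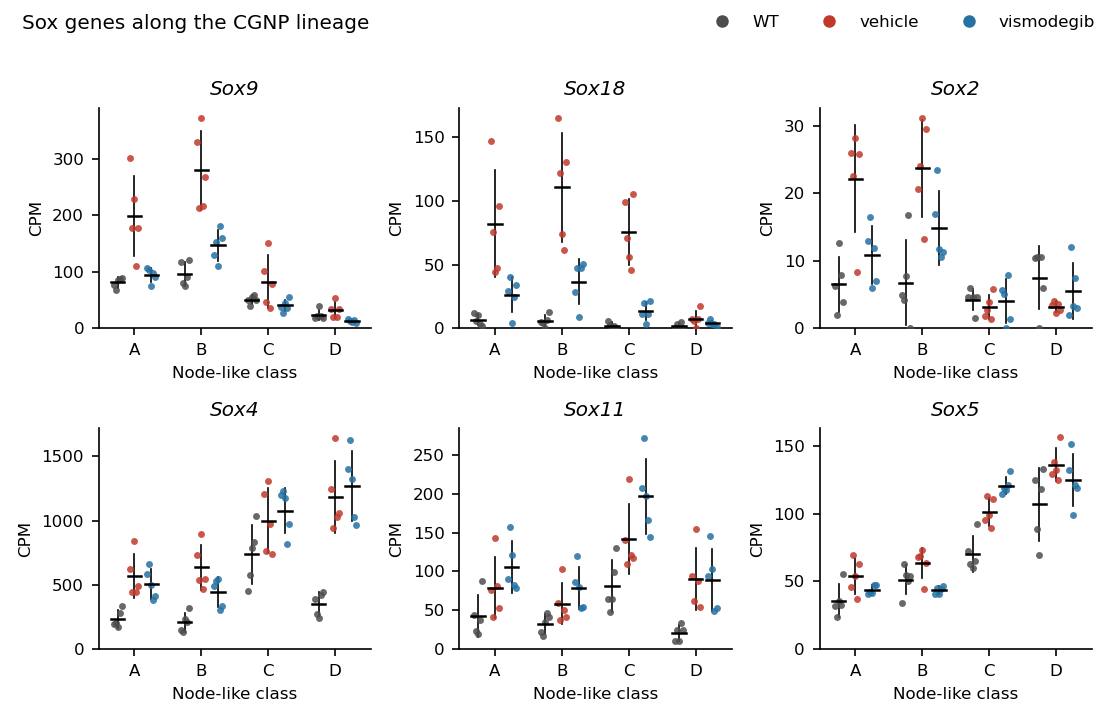
CPM of Sox9, Sox18, Sox2, Sox4, Sox11 and Sox5 in Node A-like to Node D-like cells, with 1 point per animal, the mean as a bar and the SD as a line, for WT, vehicle-treated and vismodegib-treated animals. Sox9, Sox18 and Sox2 of the tumors are low in Node D-like cells, Sox4 and Sox5 are highest in the later stages and Sox11 peaks in Node C-like cells.

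Sox2, the stem cell factor of the set, was highest in the astrocyte-like and oligodendrocyte-like classes of all groups, whose ranges overlapped. In astrocyte-like cells it was at 363, 177, 278, 279.6 and 449 CPM in WT, 160.2, 479, 316 and 328 CPM in 4 vehicle-treated and 576, 872, 313, 596 and 380.2 CPM in 5 vismodegib-treated tumors. In oligodendrocyte-like cells it was at 274, 240.3, 324, 250.1 and 329.8 CPM and 550.0, 382, 340.2, 377 and 353 CPM in the treated groups, where each vismodegib-treated tumor was above each vehicle-treated one. The differences were 0.67 (edgeR adjusted p = 0.339) and 0.57 (edgeR adjusted p = 0.165), and neither passed the test. In WT cerebella, GABAergic progenitor-like cells also held Sox2, at 251 ± 53.3 CPM (SD, n = 5), a level that overlapped the astrocyte-like and oligodendrocyte-like ranges. The next class in WT, GABAergic interneuron-like cells, was at 28.8 ± 14.7 CPM and did not overlap it.

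In CGNP-like cells Sox2 was low, at 17.9, 18.8, 23.7, 9.20 and 24.2 CPM in vehicle-treated and 10.5, 16.3, 6.51, 9.04 and 5.61 CPM in vismodegib-treated tumors. The treated groups overlapped, and a log2 difference of -0.98 ± 0.31 (SE; edgeR adjusted p = 0.0557) did not pass. Of 19 alternative fits 9 passed, with adjusted p of 0.0169 to 0.143 over all of them. Within stages the differences were -1.02 (edgeR adjusted p = 0.18) in Node A-like and -0.70 (edgeR adjusted p = 0.238) in Node B-like cells, neither of which passed. In Node C-like and Node D-like cells of vismodegib-treated tumors Sox2 was at 4.03 ± 3.24 and 5.59 ± 4.17 CPM (SD, n = 5), against 3.13 and 3.24 CPM in vehicle-treated tumors, too low to be tested. In WT CGNP-like cells Sox2 was at 6.28, 5.14, 8.57, 8.38 and 3.56 CPM, and every vehicle-treated tumor was above every WT animal there, by a log2 difference of 1.45 ± 0.31 (SE; edgeR adjusted p = 0.00157). Against WT, the log2 difference was 1.62 (edgeR adjusted p = 0.00351) in Node A-like and 1.43 (edgeR adjusted p = 0.026) in Node B-like cells. The latter call was lost without WT replicate 1, 2 or 5 (edgeR adjusted p up to 0.0684), and also with the replicate number as a block. In vehicle-treated tumors Sox2 was at 23.7 ± 7.24 CPM in Node B-like cells and, at the Node D-like stage, 3.24 ± 0.772 CPM (SD, n = 5), higher in Node B-like cells in 5 of 5 tumors, as in vismodegib-treated tumors. Microglia-like cells, which should lack Sox2, were at 7.86 ± 10.8 CPM in WT, 13.9 ± 16.1 CPM in vehicle-treated and 2.76 ± 6.16 CPM in vismodegib-treated animals (SD, n = 5 each), on 2, 8 and 1 UMIs. In vehicle-treated tumors the microglia-like range reached 38.2 CPM and overlapped that of Node A-like and Node B-like cells, while Node C-like cells, at 3.13 ± 1.796 CPM, and vascular fibroblast-like cells, at 1.24 ± 2.78 CPM (SD, n = 5 each), had lower means. The part of UMIs from other cells in the Sox2 differences was not tested. Sox2 lies inside Sox2ot on the same strand, and Sox2ot was at 0.717 ± 0.216 CPM in CGNP-like and 127 ± 77.1 CPM in oligodendrocyte-like cells of vehicle-treated tumors (SD, n = 5 each).

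Pooled over animals and with no test, cells with a Sox2 UMI were spread differently over the classes in the treated groups. In vehicle-treated tumors 613 of 898 cells with a Sox2 UMI (68.3%) were CGNP-like, and in vismodegib-treated tumors 194 of 485 (40%). Astrocyte-like cells made up 8.80% and 37.9% of them. Of all cells, astrocyte-like cells were 0.716% and 2.04% in the same tumors. Vehicle replicate 5 weighs most in these pooled counts, with 8103 of the 18293 vehicle-treated cells and 82 of the 131 astrocyte-like ones. Without thinning, 5.89% of its cells had a Sox2 UMI, the highest share of the 5 vehicle-treated tumors. By UMIs, CGNP-like cells held between 37.8% and 72.9% of the Sox2 UMIs of single vehicle-treated tumors and between 13.8% and 38.6% of single vismodegib-treated tumors. These ranges overlap slightly. With each cell thinned to 500 UMIs, the share of CGNP-like cells with a Sox2 UMI was 0.856% ± 0.327 in vehicle-treated and 0.444% ± 0.207 in vismodegib-treated tumors (SD, n = 5 each; 2-sided exact permutation p = 0.0635, adjusted over 2 tests 0.127), and 0.75% of microglia-like cells of vehicle-treated tumors had one. Without thinning the shares were 3.37% ± 0.963 and 1.73% ± 0.281 (2-sided exact permutation p = 0.00794, adjusted 0.0159), beside 2.94% of microglia-like cells. Over all cells the thinned shares were 1.28% ± 0.445 and 1.199% ± 0.35 (2-sided exact permutation p = 0.786, n = 5 each). Over whole tumors the Sox2 level differed by 0.29 (edgeR adjusted p = 0.418).

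The distance of Sox2 between classes was also tested, after its values had been seen. The log2 difference of astrocyte-like minus CGNP-like cells was 3.52 ± 0.71 in vehicle-treated (SD, n = 4) and 4.77 ± 0.31 in vismodegib-treated tumors (SD, n = 5; 2-sided exact permutation p = 0.0159). That of oligodendrocyte-like minus CGNP-like cells was 3.37 ± 0.24 and 4.39 ± 0.32 (SD, n = 5 each; 2-sided exact permutation p = 0.00794). Both adjusted p over the 3 such tests were 0.0159, and they do not account for the choice of these pairs. Among the 4 vehicle-treated tumors with an astrocyte-like value, replicate 1 had the lowest Sox2 level there, 160.2 CPM. It held 5 astrocyte-like cells, with 12481 UMIs of all genes. The CGNP-like class held other stages in the treated groups, with Node B-like cells at 46.2% and 17.9% and Node D-like cells at 9.65% and 43.5% of all cells, and the part of this shift in the distances of Sox2 and of Sox9 was not tested. The oligodendrocyte-like class also differed in makeup, with Pdgfra lower and Mog higher in vismodegib-treated tumors as given above. Within its OPC subset Sox2 was at 257 ± 71.6 CPM in vehicle-treated (SD, n = 5) and 349 ± 95.03 CPM in vismodegib-treated tumors (SD, n = 4), ranges that overlap, and the part of the makeup in that distance was not tested.

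Sox2 was counted together with Sox9 or Sox10 in single cells, pooled over animals and described with no test. Of astrocyte-like cells with a Sox2 UMI, 56.1% in WT, 73.4% in vehicle-treated and 85.9% in vismodegib-treated animals also had a Sox9 UMI, against 33.6%, 46.2% and 48.6% of the rest. None of the 79 vehicle-treated ones had a Sox10 UMI, a count that limits cells with a UMI and not cells that express the gene (95% exact binomial upper bound 4.56%, counting error only). Of oligodendrocyte-like cells with a Sox2 UMI, 60.8% in vehicle-treated and 72.8% in vismodegib-treated tumors had Sox10, against 45.2% and 57.7% of the rest. Of vehicle-treated CGNP-like cells with a Sox2 UMI, 46.2% (42.2 to 50.2) had Sox9, against 25.7% of the rest. The medians were 1658 UMIs per WT, 2727 per vehicle-treated and 3278 per vismodegib-treated astrocyte-like cell. For oligodendrocyte-like cells they were 1778 in vehicle-treated and 3008 in vismodegib-treated tumors. Depth was not held constant in these shares, and no doublet caller was run.

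**Figure D4:**
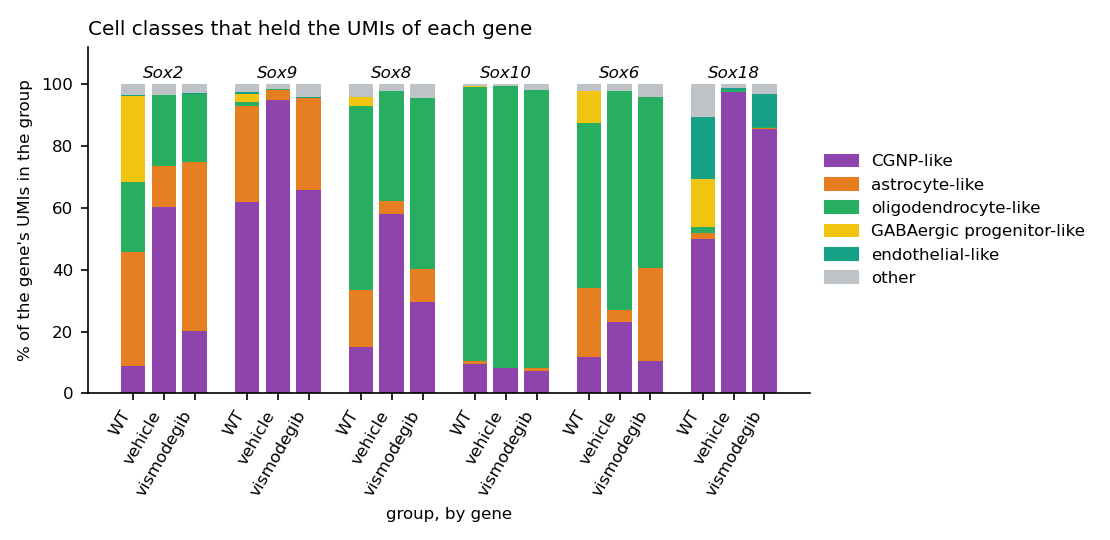
Share of the UMIs of each Sox gene that lay in each cell class, in percent of all its UMIs in WT, vehicle-treated or vismodegib-treated cells pooled over animals. For Sox2 the CGNP-like share is 9.02% in WT, 60.2% in vehicle-treated and 20.1% in vismodegib-treated cells, while Sox10 stays in oligodendrocyte-like cells in all groups.

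The SOXC genes Sox4, Sox11 and Sox12 were counted mainly in CGNP-like cells, which held 96.2%, 97.8% and 95.8% of their UMIs in vehicle-treated tumors, where they were 17138 of 18293 cells. None of them was called between treatments in any class tested. In CGNP-like cells Sox4 was at 812, 578, 1023, 602 and 576 CPM in vehicle-treated and 849, 963, 836, 723 and 717 CPM in vismodegib-treated tumors, which overlap, with a log2 difference of 0.19 ± 0.17 (SE; edgeR adjusted p = 0.519). For Sox11 the difference was 0.40 (edgeR adjusted p = 0.408) and for Sox12 0.51 (edgeR adjusted p = 0.167).

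Against WT the SOXC genes parted ways. Sox4 was at 263, 298, 321, 422 and 484 CPM in WT CGNP-like cells, below every vehicle-treated tumor, and it was higher in the tumors by a log2 difference of 0.93 ± 0.20 (SE; edgeR adjusted p = 0.0018). Sox12 was at 79.5, 102.1, 92.4, 114 and 110.4 CPM in WT and 69.9, 42.1, 64.9, 52.3 and 38.5 CPM in vehicle-treated tumors, with every tumor below every WT animal, and it fell by 0.98 ± 0.18 (SE; edgeR adjusted p = 0.000515). Sox11, at 41.5, 28.7, 31.4, 53.3 and 76.6 CPM in WT and 75.3, 51.9, 134, 73.0 and 54.6 CPM in vehicle-treated tumors, overlapped and differed by 0.67 (edgeR adjusted p = 0.0737). The median log2 difference of all genes in this comparison was 0.06.

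Stage by stage, Sox12 was lower in vehicle-treated tumors than in WT in all 4 Node-like classes, with log2 differences between -1.33 and -0.84 (largest edgeR adjusted p = 0.00623). Sox4 was higher by 1.16 (edgeR adjusted p = 0.00031) in Node A-like, 1.45 (edgeR adjusted p = 6.75e-05) in Node B-like and 1.60 (edgeR adjusted p = 1.31e-06) in Node D-like cells, and by 0.29 (edgeR adjusted p = 0.322) in Node C-like cells, which did not pass. Node D-like cells, the late differentiation stage, showed the widest gap: Sox4 was at 388, 273, 239, 423 and 448 CPM in WT and 1249, 943, 1644, 1027 and 1056 CPM in vehicle-treated tumors. Sox11 was called there too, at 10.4, 24.8, 9.96, 34.2 and 24.2 CPM in WT and 94.5, 61.8, 155, 88.0 and 53.9 CPM in vehicle-treated tumors, a difference of 1.89 (edgeR adjusted p = 0.00038), on 1 to 13 UMIs per WT animal. Of the members tested, 5 of 7, 5 of 7, 2 of 6 and 3 of 4 were called in the 4 stages, from A to D. Over all genes the shares called were 38% of the 9288 genes tested, 31.6% of 10090, 30.2% of 7723 and 27% of 6530.

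The order of stages differed between the SOXC genes. Sox11 peaked at the Node C-like stage in 5 of 5 animals of each group, at 64.4, 47.8, 64.3, 99.5 and 129.8 CPM in WT, 141, 109.7, 219.5, 122 and 117 CPM in vehicle-treated and 207, 271, 197, 166 and 144 CPM in vismodegib-treated animals. Sox4 peaked at the same stage in 5 of 5 WT animals, at 739 ± 228 CPM against 354 ± 92.9 CPM in Node D-like cells (SD, n = 5). In the tumors Sox4 stayed high in Node D-like cells, at 1184 ± 280.3 CPM in vehicle-treated and 1271 ± 273 CPM in vismodegib-treated tumors, and Node C-like cells were highest in none of 5 and 1 of 5. Sox4 was above its Node B-like level in Node D-like cells in 5 of 5 animals of each group. Sox12 had stage means between 48.5 and 59.8 CPM in vehicle-treated, 57.3 and 88.3 CPM in vismodegib-treated and 87.1 and 116 CPM in WT animals, and Node D-like cells were above Node B-like cells in 2 of 5, 3 of 5 and 4 of 5 of them. Outside the CGNP-like class, Sox4 was at 893 ± 274 CPM in GABAergic interneuron-like, 741 ± 258 CPM in GABAergic progenitor-like and 1188 ± 629 CPM in 56 unnamed cells of WT cerebella (SD, n = 5 each). Microglia-like cells were at 206 ± 90.2 CPM in vehicle-treated tumors (SD, n = 5), and whether these UMIs came from other cells was not tested. Sox4 overlaps Gm26735 on the opposite strand, and its counts may hold reads of that gene.

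Of the 4 SOXC target genes listed, all were tested in CGNP-like cells between treatments, where 13.1% of the 12411 genes tested were called. The stages held by this class differed between treatments as given above, and the part of that shift in these genes was not tested. Dcx, a microtubule protein of migrating neurons, was higher with vismodegib by 0.59 (edgeR adjusted p = 0.0268), and Tead2, a transcription factor of the Hippo pathway, fell by 0.64 (edgeR adjusted p = 0.0118). Tubb3 and Prox1 differed by 0.33 (edgeR adjusted p = 0.46) and -0.26 (edgeR adjusted p = 0.214) and did not pass.

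Of the SOXD genes, Sox5 was spread over the lineage and the glia, and Sox6 had its highest level in oligodendrocyte-like cells. These held 53.4%, 70.8% and 55.3% of all Sox6 UMIs of WT, vehicle-treated and vismodegib-treated animals, astrocyte-like cells 22.3%, 3.91% and 30.2% and CGNP-like cells 11.9%, 23.1% and 10.6%. WT GABAergic progenitor-like cells held Sox6 at 19.7 ± 11.4 CPM (SD, n = 5). Sox5 in CGNP-like cells was at 56.7 ± 9.99 CPM in WT, 72.7 ± 8.85 CPM in vehicle-treated and 81.4 ± 10.2 CPM in vismodegib-treated animals (SD, n = 5 each), and neither comparison passed, with 0.29 (edgeR adjusted p = 0.141) against WT and 0.18 (edgeR adjusted p = 0.454) between treatments. It was higher in Node D-like than in Node B-like cells in 5 of 5 animals of each group, at 136 ± 12.3 against 63.5 ± 11.2 CPM in vehicle-treated tumors. Sox6 in oligodendrocyte-like cells was at 178, 231, 312, 313 and 173 CPM in vehicle-treated and 78.6, 0, 191, 202 and 213 CPM in vismodegib-treated tumors. These ranges overlap, 1 vismodegib-treated tumor with 15 such cells held no Sox6 UMI, and the difference was -0.46 (edgeR adjusted p = 0.574). In CGNP-like cells Sox6 was at 1.73 ± 0.472 CPM in vehicle-treated tumors, too low to be tested. Both genes overlap annotated transcripts on the opposite strand, and Sox5 also Gm44068 and Sox5it on its own strand, so their counts may hold reads of these.

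**Figure D5:**
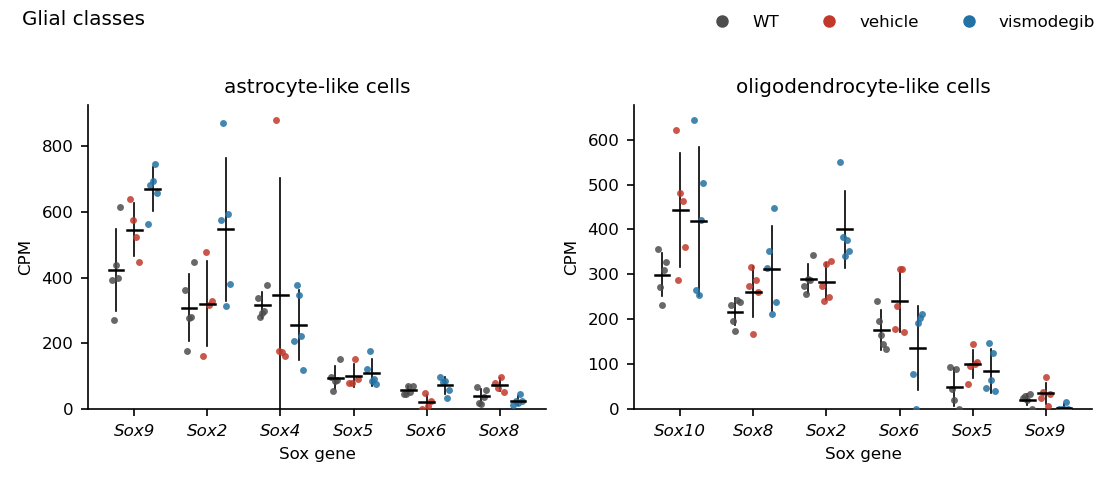
CPM of Sox genes in astrocyte-like (left) and oligodendrocyte-like cells (right), with 1 point per animal, the mean as a bar and the SD as a line, for WT, vehicle-treated and vismodegib-treated animals with at least 5 such cells. The groups overlap for Sox9 and Sox10, while Sox2 in oligodendrocyte-like cells of vismodegib-treated tumors lies above the vehicle-treated tumors.

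Among the 9 other Sox genes, Sox1, the SOXB1 relative of Sox2, was the only one that passed the filter in CGNP-like cells. It was at 1.63 ± 0.824 CPM in WT, 49.7 ± 27.2 CPM in vehicle-treated and 10.4 ± 5.53 CPM in vismodegib-treated animals (SD, n = 5 each), higher in vehicle-treated tumors than in WT by 4.92 (edgeR adjusted p = 2.17e-06) and lower with vismodegib, a difference of -2.31 (edgeR adjusted p = 0.00241). The WT level rests on 14 UMIs, so the fitted value against WT rests on few WT counts. The part of the shift in stages in the Sox1 difference between treatments was not tested. Sox17 and Sox7 were counted in endothelial-like cells, at 294 ± 134 and 75.02 ± 54.5 CPM in vehicle-treated tumors (SD, n = 5 each). Sox21 and Sox3 were counted in glia, Sox21 at 90.2 ± 18.4 CPM in astrocyte-like cells of 4 vehicle-treated tumors and Sox3 at 45.1 ± 32.9 CPM in oligodendrocyte-like cells of 5. Sox13 had under 2 CPM in CGNP-like cells of every group, at 0.812 ± 0.611 CPM in WT.

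The SOX partner factors listed were 7, of which 6 were tested in CGNP-like cells. Between treatments 4 of 6 were lower and none higher, with a median log2 difference of -0.87 against 0.00 over all genes, of which 13.1% were called. Olig2, a bHLH factor of oligodendrocyte and motor neuron lineages, was at 39.2 ± 21.5 CPM in vehicle-treated and 1.86 ± 1.46 CPM in vismodegib-treated tumors (SD, n = 5 each), a difference of -4.21 (edgeR adjusted p = 0.000215). The summed level of 4 markers of oligodendrocyte progenitors in CGNP-like cells was 120.0 to 170.1 CPM in WT, 255 to 403 CPM in vehicle-treated and 173 to 272 CPM in vismodegib-treated animals, and its part in Olig1 and Olig2 was not tested. Olig1 differed by -2.61 (edgeR adjusted p = 0.000207), and the POU factors Pou3f2 and Pou3f4 by -0.69 (edgeR adjusted p = 0.0464) and -1.05 (edgeR adjusted p = 0.0077). Pou3f3 and Pax6 differed by -0.09 (edgeR adjusted p = 0.82) and 0.27 (edgeR adjusted p = 0.167), which did not pass. Against WT, where 44.7% of all genes were called, 5 of 6 were higher in vehicle-treated tumors, and Pax6, a granule lineage factor, was lower, with -0.58 (edgeR adjusted p = 0.00269). Of the 4 glial and progenitor targets, 3 were tested between treatments and Nes, a progenitor filament and Sox2 target, fell by 1.89 (edgeR adjusted p = 0.00237), while Fabp7 and Nfia differed by -0.03 (edgeR adjusted p = 0.976) and -0.09 (edgeR adjusted p = 0.846). The stages held by CGNP-like cells differed between treatments as given above. The part of that shift in the partner factors and in these targets was not tested. Mbp was higher in vismodegib-treated CGNP-like cells by 0.96 (edgeR adjusted p = 0.0446). The summed level of 6 markers of mature oligodendrocytes in these cells was 13.3 to 34.4 CPM in vehicle-treated and 28.3 to 71.2 CPM in vismodegib-treated tumors, and its part in Mbp was not tested. Of the 3 SOXF targets, 1 or none passed the filter in CGNP-like cells. Cldn5 was at 7.72 ± 1.89 CPM in WT and 0.562 ± 0.373 CPM in vehicle-treated tumors. In vismodegib-treated CGNP-like cells pooled over animals it was at 0.925 CPM.

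Across 37 profiles of class and group, the members were compared by Pearson's r of log2(CPM + 10), as a description over profiles that share libraries. Sox2 and Sox6 (0.90), Sox6 and Sox8 (0.87) and Sox8 and Sox10 (0.86) were the closest pairs, and Sox4 and Sox11 reached 0.69. Of 14466 other genes, those most like Sox10 were Neu4 (0.99), Gal3st1 (0.99) and Asic4 (0.99). For Sox2 they were Itgb8 (0.90), Ptprz1 (0.90) and Npas3 (0.89), for Sox9 Prdx6 (0.88), Tom1l1 (0.85) and Srebf1 (0.83), and for Sox11 Insm1 (0.89), Rcor2 (0.89) and Nhlh2 (0.88). For Sox18 they were Tbx1 (0.84), N4bp3 (0.81) and Slc7a5 (0.79), none of them among the endothelial markers. For Sox4 they were Rbm4b (0.84), Slco5a1 (0.78) and Akap9 (0.76), for Sox12 Marcksl1 (0.92), H2afy2 (0.87) and 2410002F23Rik (0.87) and for Sox5 Mapk7 (0.81), Tram1l1 (0.76) and Tmem184c (0.76). For Sox6 they were Scrg1 (0.94), Plekhb1 (0.93) and Nkx2-2 (0.93) and for Sox8 Nkx2-2 (0.91), 2810468N07Rik (0.91) and Plekhb1 (0.90), of which 2810468N07Rik is the gene that overlaps Sox8.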

How the data were processed

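The authors deposited UMI counts per gene and cell barcode for each of the 15 animals, made with Drop-seq Tools and STAR on a mouse genome (mm10) to which Cre and SmoM2/EYFP sequences had been added. Tumor reads had first been aligned to a joint human and mouse genome, since human cells were added to the tumor samples. The pipeline was run with its default settings, and the gene annotation and the use of strand are not spelled out in the sources used here.

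Barcodes with at least 500 UMIs and 500 genes were kept. Those more than 5 SD above the animal's median in UMIs, genes or mitochondrial share were removed. No doublet caller was run, and doublets were removed only by these upper limits. Tumor and WT cells were clustered separately (Louvain, 30 neighbours, resolution 0.8) without Sox genes, listed SOX targets and partners other than Pax6, and clusters were named from marker lists. After the data had been seen, clusters led by hemoglobin genes were named by their other markers, vascular clusters were clustered again, and 401 of 786 cells of the tumor astrocyte-like cluster, led by Ttr and Myh3, were left unnamed. Counts were summed per animal and class (at least 5 cells) and tested with edgeR 4.0.16 (quasi-likelihood test, TMM, its filter on low counts) in R 4.3.3, with DESeq2 1.42.0 as an alternative. The fits were tested on simulated data. Shares and class differences were compared with exact permutation tests over animals. Intervals cover counting error only.

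Named were the 10 members, other Sox genes with at least 10 UMIs in a group, listed targets and partners, and the 3 genes most like each member (mean of at least 20 CPM in 1 class or more). Of the listed SOXE targets, 1 is not reported here. The members and lists were chosen with earlier results of these data known. The labels give replicates as separate samples with a serial number and do not say what that number stands for, and p-values measure the spread between them. Alternatives were RLE factors, no filter on low counts, the replicate number as a block, a resolution of 1.2, clustering with the held-out genes, an upper limit of 4 SD, tumor set as a term (a division of the tumors made in an earlier look at these data, which no label names), leaving out each animal and, chosen after seeing the data, leaving out the clusters led by hemoglobin genes and not dividing the astrocyte-like cluster.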

Additional observations from a re-analysis of the deposited data

Results flagged for a closer look

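In 54 groups of 4 or 5 animals (members tested in CGNP-like, astrocyte-like and oligodendrocyte-like cells, and Sox18 in endothelial-like cells), 4 held an animal far from the others by Dixon's criterion, where chance gives 2.7. Sox11 in CGNP-like cells of vehicle replicate 3 was at 133.6 CPM. Sox18 in CGNP-like cells of WT replicate 1 was at 8.48 CPM. Sox4 in astrocyte-like cells of vehicle replicate 1, which held 5 such cells, was at 881.3 CPM. Sox2 in oligodendrocyte-like cells of vismodegib replicate 1 was at 550.0 CPM.

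For 3 gene and class pairs, picked after the values were seen, the difference between treatments was compared between cell classes by exact permutation tests. Their p-values do not account for that choice. The log2 difference of astrocyte-like minus CGNP-like cells was larger in vismodegib-treated than in vehicle-treated tumors by 1.245 for Sox2 and by 1.558 for Sox9, and that of oligodendrocyte-like minus CGNP-like cells by 1.022 for Sox2.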

How the results depend on the processing

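Of 93 tests of members across the comparisons, 30 were called, and 27 of these were called under every alternative run. The other 3 were Sox18 in Node A-like and Node B-like cells between treatments and Sox2 in Node B-like cells against WT, and no called member reversed. Over all genes tested, 0.462% to 13.9% were called in the comparisons between treatments and 26.6% to 44.7% in those against WT. Of the 63 results not called, 17 were called under at least 1 alternative, in 50 of 1134 fits. Counts of genes called in all moved more. Between treatments, DESeq2 called 279, 585, 65 and 85 genes at the stages A to D, and the tumor set as a term gave 354, 681, 103 and 153, against 179, 355, 41 and 36 in the reported fits. Without the filter on low counts, 374 were called in Node A-like, 124 in Node C-like, 188 in Node D-like and 293 in oligodendrocyte-like cells, the last against 159. Against WT it gave 5744, 4856, 3854 and 2746 in Node A-like to Node D-like, 1079 in astrocyte-like and 1311 in oligodendrocyte-like cells. In Node D-like cells 4 were called at a resolution of 1.2, 13 with the held-out genes used for clustering and 3 with an upper limit of 4 SD, which gave 22 in astrocyte-like cells against 34 and 91 in oligodendrocyte-like cells. Leaving out 1 animal at a time gave 107 to 219 at stage A, 16 to 43 at C and 7 to 59 at D, 0 to 45 in astrocyte-like and 79 to 253 in oligodendrocyte-like cells, with the lowest counts at stages A and C without vehicle replicate 5, at D without vehicle replicate 2, and in those glial classes without vehicle replicate 5 and vismodegib replicate 5. Where edgeR called 0, 186 genes had an unadjusted p under 0.05. The cause of these shifts was not tested.

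No label says that a replicate number marks a shared litter, batch or day, although same-numbered tumors carry consecutive serial numbers in their titles. Same-numbered animals deviated together with correlations of -0.15 to 0.40 between treatments and -0.19 to 0.01 against WT, and not every animal was most like its own number. With the replicate block, 65 genes were called at stage C and 56 at stage D, and Sox2 in Node B-like cells against WT had an edgeR adjusted p of 0.0525.

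The difference in the share of all cells with a Sox2 UMI, -0.08 percentage points, went from -0.21 to 0.069 without 1 animal and turned sign without vehicle replicate 1 or vismodegib replicate 3. In CGNP-like cells it was -1.64 points without thinning, and past the threshold there. Signs also turned for members that were not called. For Sox4 in astrocyte-like cells between treatments, DESeq2 gave -0.078, the replicate block -0.13, the tumor set -0.33, the undivided cluster -0.21 and leaving out 1 animal -0.16 to 0.50. Against WT, the undivided cluster gave -0.45 for Sox2, 0.55 for Sox4 and -0.19 for Sox9, where the WT cluster was left whole in both cases, and no filter on low counts gave -0.0027 for Sox2. Sox9 in Node C-like cells against WT was -0.0073 with an upper limit of 4 SD, and Sox12 in Node C-like cells between treatments -0.013 with the tumor set. Leaving out 1 animal gave -0.096 to 0.35 for the latter, -0.14 to 0.012 for Sox2 in oligodendrocyte-like cells against WT, -0.62 to 0.086 for Sox5 and -0.062 to 0.26 for Sox10 there between treatments, -0.46 to 0.018 for Sox10 in whole tumors and -0.32 to 0.24 for Sox11 in Node D-like cells.

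After the filter on low counts, members tested between treatments were 3 in astrocyte-like and 6 in oligodendrocyte-like cells, and Sox10 and Sox6 were too low to be tested in CGNP-like cells.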

Other observations

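In 401 tumor cells of the astrocyte-like cluster, left unnamed and led by Ttr and Myh3, Sox9 was at 201 ± 104 CPM in vehicle-treated and 152 ± 96.4 CPM in vismodegib-treated tumors (SD, n = 5 each), and Sox2 at 108 ± 83.5 and 35.9 ± 40.5 CPM. Sox4 was at 697 ± 167 and 676 ± 188 CPM there. These cells entered no test as a class of their own. Purkinje-like cells of WT cerebella, large inhibitory neurons, held Sox4 at 213 ± 62.2 CPM and Sox12 at 52.2 ± 19.2 CPM (SD, n = 5), and 1 Sox2 UMI. Vascular fibroblast-like cells of vehicle-treated tumors held Sox9 at 69.1 ± 35.8 CPM and Sox8 at 47.5 ± 53.7 CPM (SD, n = 5), on 25 and 12 UMIs.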
